A study of Mus musculus with 12 samples.

Results

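Potassium channel subunit genes other than the two-pore Kcnk genes were examined in mouse trigeminal ganglia, the sensory ganglia of the face and meninges. The members were all genes of the deposited table whose mouse symbol starts with Kcn, with the 14 Kcnk genes left out, which gave 85 genes of 51341. They comprised 63 pore-forming or modifier alpha subunit genes, 16 auxiliary subunit genes, 5 noncoding genes named after Kcn loci, and Kcnrg, a regulator of channel assembly. The samples were ganglia of 12 CD1 mice, an outbred stock: 6 responders to PACAP, a peptide that sensory and parasympathetic fibres release, and 6 nonresponders to it, each group with 3 males and 3 females. The title of the series places the response, light aversion, in a question of inheritance and of CGRP, another sensory neuropeptide. The labels gave no age, no genotype and no dose, and the sources used here do not say how a response was scored or when PACAP was last given.

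Voltage-gated potassium channels are tetramers of Kcna, Kcnb, Kcnc, Kcnd, Kcnh or Kcnq subunits that open on depolarization and repolarize the membrane, and the auxiliary Kcnab, Kcnip and Kcne proteins set their gating and their traffic to the surface. Kcnj genes encode inward rectifiers, which hold the resting potential and include the ATP-sensitive and G-protein-gated channels. Kcnm, Kcnn and Kcnt genes encode channels opened by calcium or sodium. In sensory neurons these currents set the threshold and the rate of firing.

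The values were FPKM, fragments per kilobase of transcript, scaled to the depth of the library, which allows levels of different genes to be compared per length. Of the 85 members, 57 had at least 1 FPKM in at least 3 mice and were tested among 14203 genes, and the other 28 were not. Fold changes are differences of log2(FPKM + 1), responder minus nonresponder, from limma with sex as a covariate, and a gene was called at a Benjamini-Hochberg adjusted p under 0.05 over all genes tested. The log2(FPKM + 1) scale understates the change of genes of low level. In bulk tissue, fewer cells of a type and less RNA per cell cannot be told apart.

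No member was called between responders and nonresponders: 0 of 57 passed in limma, where 3 genes, or 0.0211% of all genes tested, did. The smallest adjusted p of a member was 0.525, for Kcne4, followed by 0.640 for Kcnh7. At an unadjusted p under 0.05 in limma stood 2 members, Kcnh7 higher and Kcne4 lower in responders, a share of 3.51% against 7.4% of all genes tested (3.23% higher and 4.17% lower). Kcne4 was the 1 tested member that met the filter in nonresponders only, the group in which it was higher. It entered the test through that group, which limits what its count shows. With no filter its unadjusted p was 0.00651 in limma, and with a filter on the mean over all mice 0.00872. In none of the 57 did the values of the 6 responders and the 6 nonresponders stand fully apart, which they did in 0.549% of all genes. Of the tested members, 31 had higher and 26 lower means in responders, which is 54.4% higher against 50.7% of all genes, and their median log2 fold change was 0.04 against 0.00. Fold changes ran from -0.49 for Kcnmb4 to 0.40 for Kcng4. The 95% confidence interval of the log2 fold change lay within -1 and 1 for 53 of the 57, and the 4 others were Kcnh6, Kcnip4 and the noncoding Kcnmb4os2, each with a few mice far from the rest, and Kcnmb4, with 1 such mouse. A p that misses the threshold does not show that the groups were alike.

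**Figure D1:**
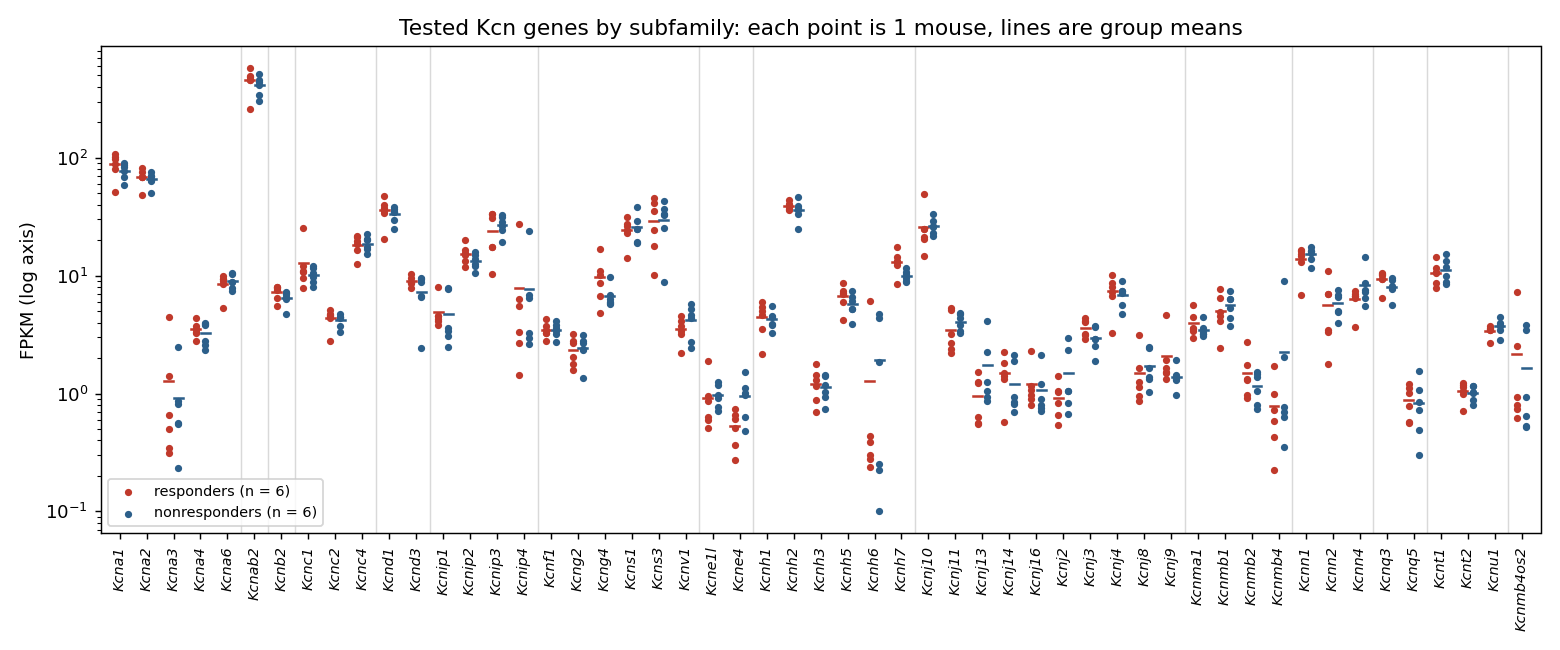
FPKM (log axis) of 53 of the 57 tested Kcn genes, grouped by subfamily, with 1 point per mouse for responders (red, left of each pair) and nonresponders (blue) and a line at each group's mean. Kcnab2 lies above all others, and the points of both groups overlap in every gene.

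Promoter sequences are shown for 3 members: Kcnh7, the member with the smallest p among those higher in responders; Kcnh2, the most abundant pore subunit gene whose listed promoter lies outside annotated exons; and Kcnj10, the most abundant inward rectifier gene. Each is the 250 bases before a transcript start annotated by RefSeq on GRCm38.p6, written 5′ to 3′ on the strand of the gene. They lie at chr2:63184288-63184537 on the minus strand for Kcnh7, at chr5:24329592-24329841 on the minus strand for Kcnh2, inside its annotated gene, and at chr1:172340960-172341209 on the plus strand for Kcnj10. Capitals mark GGGCGG, the core of the GC box, on either strand; TGACG, the core of the cAMP response element, was searched in the same way and these 3 windows hold no match.
Kcnh7: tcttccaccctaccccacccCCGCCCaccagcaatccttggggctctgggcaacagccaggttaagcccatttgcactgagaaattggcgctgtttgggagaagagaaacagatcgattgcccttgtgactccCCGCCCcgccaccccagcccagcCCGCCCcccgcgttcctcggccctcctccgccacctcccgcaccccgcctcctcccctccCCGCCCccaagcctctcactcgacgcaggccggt
Kcnh2: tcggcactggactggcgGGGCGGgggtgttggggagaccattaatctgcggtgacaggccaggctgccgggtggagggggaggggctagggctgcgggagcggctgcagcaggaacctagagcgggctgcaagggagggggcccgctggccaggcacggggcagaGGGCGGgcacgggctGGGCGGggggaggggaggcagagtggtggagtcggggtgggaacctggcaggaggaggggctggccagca
Kcnj10: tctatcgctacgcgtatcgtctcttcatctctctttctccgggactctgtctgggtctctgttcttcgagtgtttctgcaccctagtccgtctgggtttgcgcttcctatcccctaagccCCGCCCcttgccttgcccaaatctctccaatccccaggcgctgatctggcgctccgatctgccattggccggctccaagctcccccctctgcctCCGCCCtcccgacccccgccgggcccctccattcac
GGGCGG occurred 4 times in the Kcnh7 window, 3 times in that of Kcnh2 and 2 times in that of Kcnj10. RefSeq promoters matched 61 members by symbol, with 82 windows in all. GGGCGG was present on either strand in 36 of these, or 43.9%, against 32.7% of all 32851 promoters, and TGACG in 16, or 19.5%, against 17.8%. TATAAA, the TATA box core, was present in 3 windows, or 3.66%, against 12.4%. The full cAMP response element, TGACGTCA, which contains TGACG, was present in 0 of the 82 windows, against 1.55% of all promoters. These matches describe letters and not binding.

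Mice of both groups differed in total signal and in cell markers. Total FPKM ranged from 286388 to 358590 and the depth implied by the steps of single-exon genes from 17300000 fragments in responder 1 to 38700000 in nonresponder 4. Sensory neuron markers, none of which was at 0 in any mouse, summed to 3452 FPKM in responder 1 and 3898 FPKM in nonresponder 4, both males, and to between 4493 and 7046 FPKM in the other 10 mice. Within this list, Tubb3, Elavl4, Prph, Nefl, Nefm, Nefh, Scn10a and Pou4f1 had their lowest value of all mice in responder 1. Snap25 and Avil had their highest there, at 34.2 and 30.3 FPKM, and Uchl1, Scn9a and Isl1 lay in between. In their median, the tested Kcn genes were lowest in responder 1 and nonresponder 4. In each mouse the median deviation of the 57 tested members from their mean over all mice was -0.37 log2 units in responder 1 and -0.30 in nonresponder 4, and between -0.05 and 0.13 in the others. Responder 1 held the lowest value of 26 of the 57 tested members and the highest of 7, and nonresponder 4 the lowest of 12 and the highest of 1. Over all 85 members, responder 1 held the highest value of 17, more than any other mouse. Summed over the 85 members, responders had 1123 ± 191 FPKM and nonresponders 1051 ± 156 FPKM (SD, n = 6 each), or 0.371 ± 0.083% and 0.348 ± 0.066% of all FPKM.

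Pituitary marker genes summed to 77932 FPKM in responder 1, against 27.2 to 6854 FPKM in the others, and 9 of 9 were higher in responders. Skeletal muscle markers summed to 1425 FPKM in nonresponder 3 and 1663 FPKM in nonresponder 4, against at most 399 FPKM elsewhere, with Myh4 at 0 in 5 mice. Fibroblast and meningeal markers summed to 261 to 513 FPKM in responders and 552 to 1608 FPKM in nonresponders, and 5 of 6 were lower in responders. Taken alone, each of the 6 overlapped between the groups. Of the myelinating Schwann cell markers 6 of 7 tested were lower in responders and of the sensory neuron markers 12 of 13 were higher, with a median log2 fold change of 0.11. None of these lists held a gene at an adjusted p under 0.05, and their part in the results on Kcn genes was not tested. Without responder 1 the tested Kcn genes split into 38 higher and 18 lower in responders, with 6 at an unadjusted p under 0.05 in limma, 10.7% against 9.09% of all genes. Without nonresponder 4 they split into 25 higher and 29 lower, with 0 at that threshold, against 5.98% of all genes. Without both of these mice the split was 31 higher and 23 lower, with 4 at that threshold, all higher, 7.41% against 8.32% of all genes. No member had an adjusted p under 0.05 in these 3 fits.

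**Figure D2:**
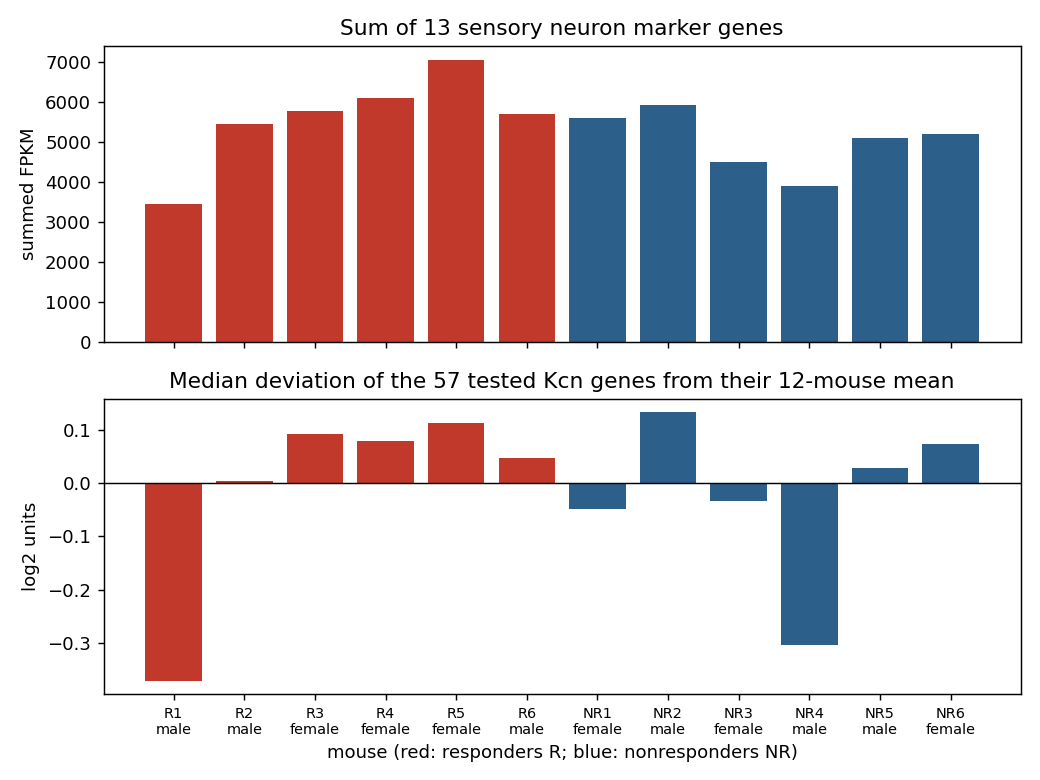
Upper panel, summed FPKM of 13 sensory neuron marker genes in each mouse; lower panel, the median deviation (log2 units) of the 57 tested Kcn genes from their mean over all 12 mice, with responders in red and nonresponders in blue. Responder 1 and nonresponder 4 are lowest in both panels, at 3452 and 3898 FPKM and at -0.37 and -0.30.

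Kcnab2, which encodes a cytoplasmic beta subunit that binds Kcna channels and promotes their traffic to the axon, was the most abundant member. It ranged over 260, 469 and 578 FPKM in responders and over 304, 426 and 518 FPKM in nonresponders (lowest, median and highest). Its 433 FPKM over all mice made up 39.8% of the summed level of the 85 members, and the 5 most abundant members together made up 60.5%. The groups overlapped, with the low ends set by responder 1 and nonresponder 4. The other responders lay between 454 and 578 FPKM, above the nonresponder median. Among females the groups stood apart, as they did in 19.9% of all genes tested. The log2 fold change was 0.13 (95% interval -0.28 to 0.54; limma adjusted p = 0.885), and it ran between 0.05 and 0.28 with 1 mouse left out. The other beta subunit genes were near the bottom of the scale. Kcnab1 averaged 0.173 ± 0.0851 FPKM in responders and 0.234 ± 0.152 FPKM in nonresponders. Kcnab3 reached 7.03 FPKM in responder 3 and was between 0.316 and 0.766 FPKM in the other 11 mice.

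Kcna1 and Kcna2 encode the Kv1.1 and Kv1.2 subunits of the low-threshold current that limits repetitive firing. Kcna1 had 51.7, 93.5 and 107 FPKM in responders and 58.9, 80.4 and 91.0 FPKM in nonresponders (lowest, median and highest). Kcna2 had 48.6, 69.0 and 81.7 FPKM in responders and 50.1, 67.7 and 76.5 FPKM in nonresponders. Both were among the 3 most abundant members, and in both the groups overlapped. Their log2 fold changes were 0.15 (95% interval -0.23 to 0.53) for Kcna1 and 0.05 (-0.23 to 0.33) for Kcna2. With 1 mouse left out, that of Kcna1 ran between 0.06 without responder 6 and 0.29 without responder 1, where its unadjusted p was 0.0441 in limma; its adjusted p lay between 0.542 and 0.988 over the 24 alternative settings. Kcna4, the subunit of the fast-inactivating current of small nociceptors, averaged 3.51 ± 0.543 FPKM in responders and 3.24 ± 0.736 FPKM in nonresponders. Kcna6 averaged 8.58 ± 1.65 FPKM in responders and 8.99 ± 1.3 FPKM in nonresponders, and 2355 of its exonic bases are shared with the antisense gene Gm26673. Of the 8 Kcna genes 5 were tested, with 4 higher and 1 lower in responders and no p under 0.05 in limma.

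Kcna3 and Kcna7 were high in 2 mice each and Kcna5 mainly in 1; Kcna3, Kcna5, Kcna6 and Kcna7 are named after their values were seen. Kcna3, a channel of lymphocytes and microglia as well as neurons, had 4.44 FPKM in responder 1 and 2.5 FPKM in nonresponder 4, and between 0.235 and 1.4 FPKM in the other 10 mice. Kcna5 had 6.66 FPKM in responder 1, 1.17 FPKM in responder 2 and at most 0.916 FPKM elsewhere. Kcna7, a channel gene of skeletal muscle and heart, had 4.22 FPKM in nonresponder 3 and 4.20 FPKM in nonresponder 4, the mice with the highest sums of skeletal muscle markers, and at most 0.669 FPKM in the other 10. Kcna5 and Kcna7 failed the filter on low values and were not tested.

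Kcnb genes encode the Kv2 subunits of the delayed rectifier, and Kcnf, Kcng, Kcns and Kcnv encode silent subunits that form channels only together with Kv2. Kcnb2 averaged 7.25 ± 1.01 FPKM in responders and 6.51 ± 0.944 FPKM in nonresponders, with the lowest value, 4.73 FPKM, in nonresponder 4. Its log2 fold change was 0.14 (95% interval -0.12 to 0.39). Of the silent subunit genes, 6 of 10 were tested, with 1 higher and 5 lower in responders.

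Kcns3, the most abundant silent subunit gene, was uneven within both groups. It had 10.1, 30.0 and 45.6 FPKM in responders and 8.81, 33.1 and 43.0 FPKM in nonresponders (lowest, median and highest). The low mice were responder 5, responder 4 and nonresponder 1, all females, at 10.1, 17.7 and 8.81 FPKM, and the log2 fold change of -0.06 had an interval of -0.88 to 0.76. Kcns1, whose human counterpart has been linked to pain sensitivity, averaged 24.6 ± 5.95 FPKM in responders and 26.0 ± 7.19 FPKM in nonresponders. Kcng4 showed the largest positive fold change. It had 4.82, 9.37 and 16.8 FPKM in responders and 5.70, 6.15 and 9.65 FPKM in nonresponders, and the log2 fold change was 0.40 (95% interval -0.03 to 0.82; limma adjusted p = 0.681). Its high values lay in the 3 responder females, at 10.1, 10.9 and 16.8 FPKM, and nonresponder 3 stood at 9.65 FPKM, so that the groups overlapped. Kcnv1 averaged 3.53 ± 0.813 FPKM in responders and 4.19 ± 1.33 FPKM in nonresponders.

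Kcnc genes encode the Kv3 channels, which open at high voltage and close fast and so allow firing at high rates. Kcnc4, whose product forms fast-inactivating Kv3 channels, averaged 18.4 ± 3.41 FPKM in responders and 18.7 ± 2.74 FPKM in nonresponders. Kcnc1 averaged 12.8 ± 6.45 FPKM in responders and 10.2 ± 1.63 FPKM in nonresponders, while Kcnc2 averaged 4.38 ± 0.818 FPKM in responders and 4.18 ± 0.544 FPKM in nonresponders. The responder mean of Kcnc1 rested on responder 3, at 25.6 FPKM against 7.88 to 12 FPKM in the other responders, and its log2 fold change was 0.21 with that mouse and 0.01 without it. All 4 Kcnc genes were tested, with 2 higher and 2 lower in responders.

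Kcnd genes encode the Kv4 channels of the subthreshold A-type current, and Kcnip genes encode the calcium-binding KChIP proteins that attach to them. Kcnd1 averaged 35.8 ± 8.80 FPKM in responders and 33.1 ± 4.95 FPKM in nonresponders. Kcnd3 had 7.80, 8.73 and 10.3 FPKM in responders and 2.42, 7.77 and 9.65 FPKM in nonresponders (lowest, median and highest). Its log2 fold change of 0.35 (95% interval -0.16 to 0.87; limma adjusted p = 0.757) rested on nonresponder 5, whose 2.42 FPKM lay far below the 6.59 to 9.65 FPKM of the other nonresponders: without that mouse it was 0.12. Kcnd2, named after its values were seen, had 6.30 FPKM in responder 1 and 3.73 FPKM in responder 3 against at most 0.981 FPKM in the other 10 mice, and was not tested.

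All 4 Kcnip genes were tested, with 2 higher and 2 lower in responders. Kcnip3, which encodes the protein also known as DREAM, a calcium-binding transcriptional repressor linked to pain, had 10.3, 24.4 and 33.4 FPKM in responders and 19.3, 27.6 and 32.6 FPKM in nonresponders. The low responder values were those of responders 1, 2 and 3, at 10.3, 17.4 and 17.7 FPKM. Kcnip2 averaged 15.4 ± 2.78 FPKM in responders and 13.3 ± 1.96 FPKM in nonresponders. Kcnip4 had 27.5 FPKM in responder 6 and 24.0 FPKM in nonresponder 2, both males, and between 1.43 and 6.81 FPKM in the other 10 mice. Kcnip1 stood at 7.98 FPKM in responder 6, 7.76 FPKM in nonresponder 2 and 7.92 FPKM in nonresponder 6, and at 2.49 to 4.59 FPKM in the other 9. Responder 6 and nonresponder 2 were thus high for both genes, 1 mouse in each group, and the log2 fold changes were 0.11 for Kcnip1 and -0.13 for Kcnip4; that of Kcnip4 was -0.60 without responder 6 and 0.26 without nonresponder 2.

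**Figure D3:**
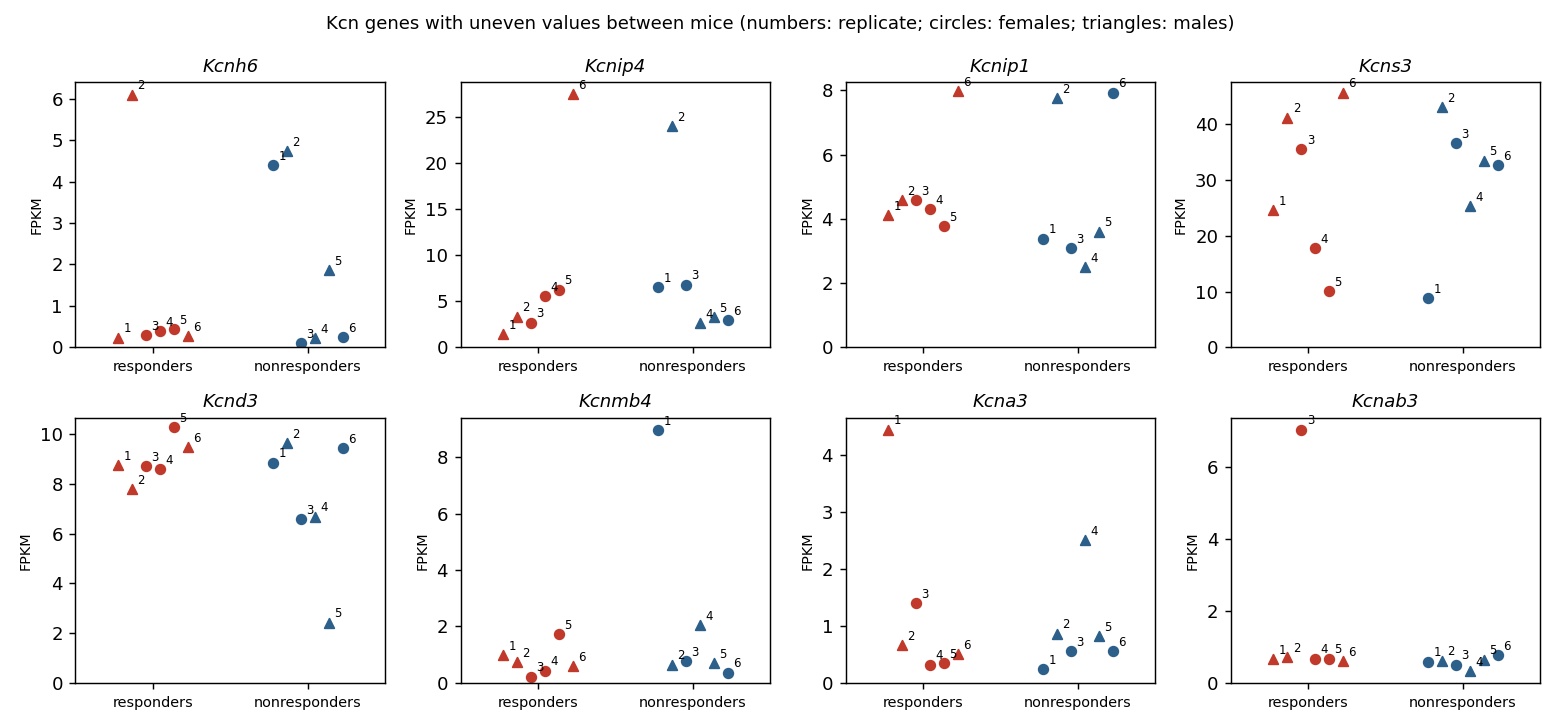
FPKM in each mouse (replicate number beside the point; circles, females; triangles, males) for 8 Kcn genes with uneven values, responders in red on the left and nonresponders in blue on the right of each panel. High or low mice occur in both groups for Kcnh6, Kcnip4, Kcnip1 and Kcns3; for Kcnab3 the high mouse is responder 3 and for Kcnmb4 nonresponder 1.

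Kcnh genes encode the EAG, ERG and ELK channels. Kcnh2, which encodes ERG1, the channel of the cardiac rapid delayed rectifier, was the most abundant at 35.8, 39.1 and 44.2 FPKM in responders and 24.8, 36.5 and 46.4 FPKM in nonresponders (lowest, median and highest). The spread was wider among nonresponders, on both sides of the responders, and the log2 fold change was 0.14 (95% interval -0.15 to 0.42). Of the 8 Kcnh genes 6 were tested, with 5 higher and 1 lower in responders.

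Kcnh7, at chr2:62693414-63184287 on the minus strand in GRCm38, encodes ERG3, a neuronal relative of ERG1. It had 8.51, 13.1 and 17.5 FPKM in responders and 8.79, 9.94 and 11.6 FPKM in nonresponders, with means of 13.1 ± 2.91 FPKM and 9.97 ± 1.06 FPKM (SD, n = 6 each). The other 5 responders lay above all nonresponders, between 12.2 and 17.5 FPKM, and responder 1, at 8.51 FPKM, lay below all of them. The log2 fold change was 0.35 (95% interval 0.03 to 0.66; limma unadjusted p = 0.0326, adjusted p = 0.640). The unadjusted p was under 0.05 in 16 of 24 alternative settings, and the adjusted p ranged between 0.227 and 0.865 over them. Kcnh7 shares 696 exonic bases with Gca on the opposite strand, which had 7.29 to 11.3 FPKM, and without strand information reads of this stretch cannot be told apart.

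Kcnh5, an EAG channel, averaged 6.73 ± 1.52 FPKM in responders and 5.76 ± 1.22 FPKM in nonresponders. Kcnh6, the ERG2 gene, named after its values were seen, was uneven within both groups. It had 6.09 FPKM in responder 2, 4.39 FPKM in nonresponder 1, 4.72 FPKM in nonresponder 2 and 1.86 FPKM in nonresponder 5, and between 0.10 and 0.439 FPKM in the other 8 mice. These mice were of both sexes and both groups, and the log2 fold change of -0.39 had an interval of -1.59 to 0.80.

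Kcnq genes encode the M-current, a slow potassium current that muscarinic and other receptors shut to raise excitability, and the openers retigabine and flupirtine act on it. Kcnq3 had 6.48, 9.74 and 10.5 FPKM in responders and 5.6, 8.06 and 9.48 FPKM in nonresponders (lowest, median and highest). Kcnq5 had 0.567, 0.891 and 1.21 FPKM in responders and 0.298, 0.781 and 1.56 FPKM in nonresponders. In Kcnq5 the groups overlapped over most of their range. In Kcnq3 responder 1 held the low end of the responders. The other responders lay between 9.39 and 10.5 FPKM, where the highest nonresponder stood at 9.48 FPKM. The log2 fold changes were 0.21 (95% interval -0.08 to 0.49) for Kcnq3 and 0.06 (-0.31 to 0.42) for Kcnq5. For Kcnq3 the unadjusted p in limma was under 0.05 in 3 of 24 alternative settings, and the adjusted p ranged between 0.404 and 0.957 over them. All 4 tested Kcnq genes were higher in responders, and none had a p under 0.05 in limma. Kcnq1, the cardiac and epithelial member, was at most 0.272 FPKM in any mouse and was not tested.

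Kcne genes encode small membrane proteins that join Kcnq and other channels. Kcne4, at chr1:78816758-78820028 on the plus strand in GRCm38, encodes an inhibitory subunit of Kcnq1 and of some Kcna channels and is known from vascular smooth muscle. It had 0.273, 0.558 and 0.744 FPKM in responders and 0.482, 0.991 and 1.53 FPKM in nonresponders, with means of 0.525 ± 0.180 FPKM and 0.957 ± 0.372 FPKM (SD, n = 6 each). Nonresponders 2 and 5 lay within the range of the responders, and the other 4 nonresponders above all responders. The log2 fold change was -0.35 (95% interval -0.59 to -0.11; limma unadjusted p = 0.00863, adjusted p = 0.525). Kcne4 reached 1 FPKM in nonresponders only and so entered the test through the group in which it was higher, which limits what these values show. A filter on the mean over all mice gave an unadjusted p of 0.00872 in limma and no filter 0.00651, and the adjusted p ranged between 0.300 and 0.823 over the 20 alternative settings that kept the gene. Pericyte and smooth muscle markers summed to 30.9 to 66.1 FPKM in responders and 29.9 to 83.5 FPKM in nonresponders, with 6 of 6 tested markers lower in responders and Pdgfrb at 0 in 6 mice. Fibroblast markers, given above, did not overlap between the groups in their sum, though each marker alone did. Ptgds made up 218 of the mean sum of 386 FPKM in responders and 636 of 994 FPKM in nonresponders. The part of smooth muscle or fibroblast markers in Kcne4 was not tested. Kcne1l averaged 0.907 ± 0.511 FPKM in responders and 0.965 ± 0.218 FPKM in nonresponders. The other 3 Kcne genes were not tested.

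**Figure D4:**
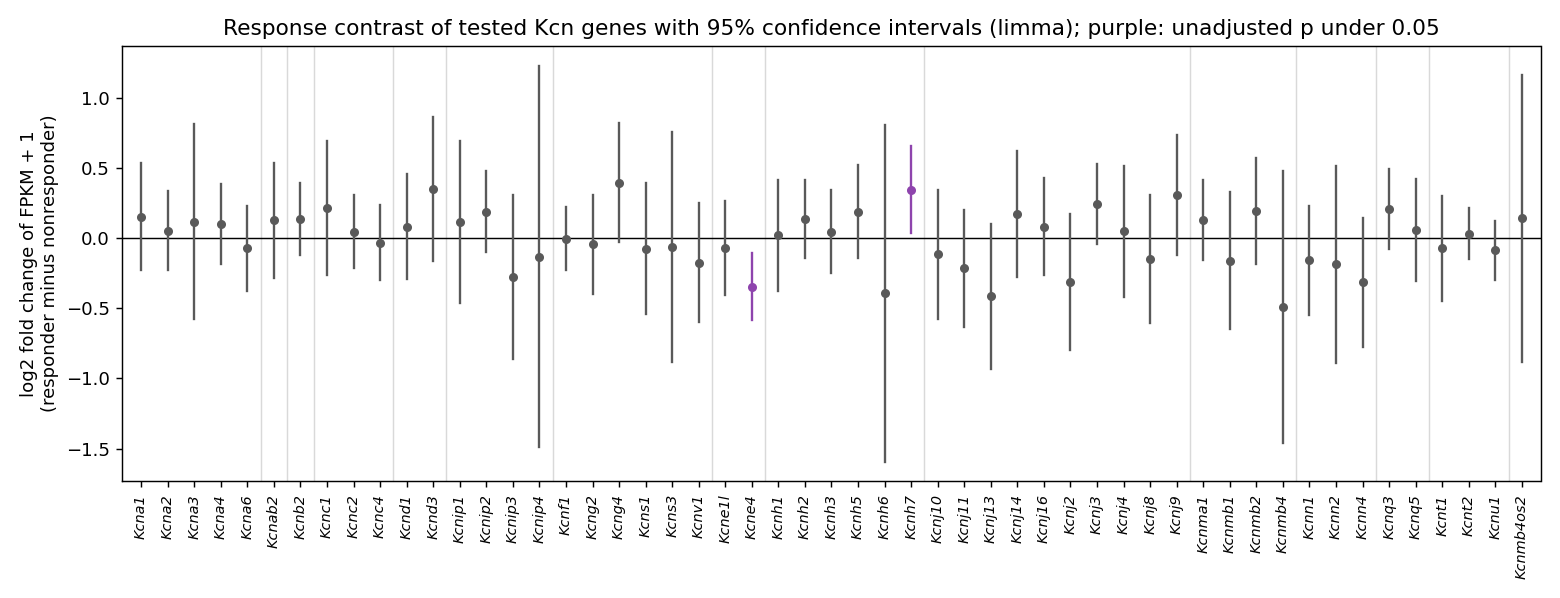
Log2 fold change of FPKM + 1, responder minus nonresponder, of 53 of the 57 tested Kcn genes with 95% confidence intervals from limma; values above 0 are higher in responders, and the genes with an unadjusted p under 0.05 are in purple. Those are Kcnh7, at 0.35, and Kcne4, at -0.35, and the widest intervals belong to Kcnip4, Kcnh6, Kcnmb4os2 and Kcnmb4.

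Among the inward rectifiers, 10 of 15 Kcnj genes were tested, with 5 higher and 5 lower in responders. Kcnj10, the Kir4.1 gene of satellite glia, which takes up potassium around the neurons, had 14.8, 22.9 and 49.2 FPKM in responders and 21.5, 26.0 and 33.7 FPKM in nonresponders (lowest, median and highest). Responder 3 was the highest and responder 1 the lowest mouse of all 12. The log2 fold change was -0.12 (95% interval -0.57 to 0.34), and it was -0.01 without responder 1 and -0.30 without responder 3. Of the satellite glia markers 6 of 7 were lower in responders, with sums of 743 to 2096 FPKM in responders and 1325 to 2588 FPKM in nonresponders. Kcnj4 averaged 7.38 ± 2.34 FPKM in responders and 6.90 ± 1.51 FPKM in nonresponders.

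Kcnj11 and Kcnj8 encode the pores of ATP-sensitive channels, the second of which is prominent in pericytes and smooth muscle. Openers of these channels provoke headache in people with migraine. Kcnj11 averaged 3.49 ± 1.38 FPKM in responders and 4.07 ± 0.681 FPKM in nonresponders. Kcnj8 averaged 1.5 ± 0.857 FPKM in responders and 1.72 ± 0.610 FPKM in nonresponders. The log2 fold changes were -0.22 (95% interval -0.63 to 0.20) for Kcnj11 and -0.15 (-0.61 to 0.31) for Kcnj8, and responder 1 held the highest Kcnj8 value, 3.16 FPKM.

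The G-protein-gated channels are built from Kcnj3, Kcnj5, Kcnj6 and Kcnj9. Kcnj3 had 2.91, 3.64 and 4.37 FPKM in responders and 1.91, 2.90 and 3.72 FPKM in nonresponders (lowest, median and highest). It was the member of this subfamily with the smallest p, at a log2 fold change of 0.24 (95% interval -0.05 to 0.53; limma adjusted p = 0.715), and the groups overlapped between 2.91 and 3.72 FPKM. Kcnj6 had 3.58 FPKM in responder 1 and at most 0.703 FPKM in the other 11 mice, with a listed value of 0 in nonresponder 3. Kcnj13, a rectifier known from choroid plexus and retinal pigment epithelium, had 0.55, 0.923 and 1.53 FPKM in responders and 0.863, 1.16 and 4.11 FPKM in nonresponders. Its log2 fold change of -0.41 (95% interval -0.93 to 0.10; limma adjusted p = 0.727) included nonresponder 3 at 4.11 FPKM, and was -0.23 without that mouse. Choroid plexus markers summed to 7.61 FPKM in that mouse, to 2.54 to 18.6 FPKM in responders and to 1.73 to 7.61 FPKM in nonresponders, with Otx2 at 0 in 2 mice. Kcnj13 also shares 623 exonic bases with Gigyf2 on the opposite strand, which had 5.91 to 11.4 FPKM.

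Kcnma1 encodes the pore of the large-conductance calcium-activated BK channel and the Kcnmb genes its beta subunits. Kcnma1 averaged 3.93 ± 0.952 FPKM in responders and 3.48 ± 0.518 FPKM in nonresponders. Kcnmb1, the smooth muscle beta subunit, averaged 5.03 ± 1.84 FPKM in responders and 5.59 ± 1.38 FPKM in nonresponders, and Kcnmb2 averaged 1.5 ± 0.665 FPKM in responders and 1.16 ± 0.345 FPKM in nonresponders. Kcnmb4, the neuronal beta subunit, had 0.223, 0.659 and 1.73 FPKM in responders and 0.353, 0.729 and 8.96 FPKM in nonresponders (lowest, median and highest). The log2 fold change of -0.49 (95% interval -1.46 to 0.48), the most negative of the members, rested on nonresponder 1 at 8.96 FPKM, and without that mouse Kcnmb4 no longer passed the filter. The noncoding Kcnmb4os2 shares 693 exonic bases with Kcnmb4 on the opposite strand. It had 7.33 FPKM in responder 1, 2.51 FPKM in responder 3, 3.82 FPKM in nonresponder 3 and 3.44 FPKM in nonresponder 6, at most 0.933 FPKM elsewhere, and 0.524 FPKM in nonresponder 1, where Kcnmb4 was highest.

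Kcnn genes encode the small and intermediate conductance calcium-activated channels of the afterhyperpolarization. All 3 tested genes were lower in responders (median log2 fold change -0.19), and none had a p under 0.05 in limma. Within males 0 of the 3 were higher in responders and within females 2. With 1 mouse left out, the log2 fold change rose to at most 0.004 for Kcnn1 and 0.035 for Kcnn2, a change of sign in both. Kcnn1 averaged 13.9 ± 3.62 FPKM in responders and 15.2 ± 2.13 FPKM in nonresponders, with responder 1 lowest at 6.91 FPKM. Kcnn2 had 1.79, 5.24 and 11 FPKM in responders and 3.96, 5.82 and 7.53 FPKM in nonresponders, so that the responders spread beyond the nonresponders on both sides. Kcnn4, the intermediate conductance channel, averaged 6.33 ± 1.36 FPKM in responders and 8.31 ± 3.14 FPKM in nonresponders, at a log2 fold change of -0.31 (95% interval -0.78 to 0.15).

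The Kcnt genes encode sodium-activated channels, and Kcnu1 the sperm channel Slo3. Kcnt1 averaged 10.6 ± 2.32 FPKM in responders and 11.3 ± 2.71 FPKM in nonresponders. Kcnt2 averaged 1.05 ± 0.189 FPKM in responders and 1.01 ± 0.144 FPKM in nonresponders. Its interval of -0.15 to 0.21 was among the narrower ones, at a level where the log2(FPKM + 1) scale compresses fold changes and their spread. Kcnu1, known from testis, averaged 3.41 ± 0.359 FPKM in responders and 3.70 ± 0.542 FPKM in nonresponders, and ranged between 2.71 and 4.50 FPKM over all mice.

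The 28 members that failed the filter included 12 that did not exceed 0.5 FPKM in any mouse. Responder 1 was the highest mouse for 10 of the 28 and nonresponder 3 for 5. Beside Kcna5, Kcnd2 and Kcnj6, named above, Kcnn3 had 2.54 FPKM in responder 1 and at most 0.624 FPKM elsewhere, and Kcng1 2.02 FPKM in responder 1 and at most 0.61 FPKM in nonresponders. In responder 1 the pituitary marker sum was 77932 FPKM, as given above, and the part of this tissue in these values was not tested. Kcne2 reached 1.36 FPKM and Kcnrg 2.56 FPKM in nonresponder 3. Kcnn3, Kcng1, Kcne2 and Kcnrg are named after their values were seen. At the other end, 41 of the 85 members had at least 1 FPKM in all 12 mice, and 15 tested members had a coefficient of variation under 20% over all mice, while 5 had one over 100%.

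The response contrast was also fitted within each sex, from 4 cell means. Within females 38 tested members were higher and 19 lower in responders (median log2 fold change 0.08), where 50% of all genes were higher. Within males 25 were higher and 32 lower, with a median of -0.07, where 49.1% of all genes were higher. At an unadjusted p under 0.05 in limma stood 3 members in females, 5.26% against 6.81% of all genes: Kcne4, Kcng4 and Kcnj14. In males there were 2, 3.51% against 6.78% of all genes: Kcnj3 and Kcnn4. The values of the 3 responder and the 3 nonresponder females stood fully apart in 14 of the 57 tested members, 24.6% against 19.9% of all genes tested. No member had an adjusted p under 0.05 in either sex, where 0.00704% of all genes did in females and 0.0141% in males. The male split moved with single mice in opposite directions. Without responder 1, 36 of 56 were higher in responders, where 47.9% of all genes were higher. Without nonresponder 4 it was 13 of 54, against 48.5% of all genes, and without both 25 of 54, against 44.9%.

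The difference of the response contrast between the sexes, female minus male, had 0 members at an adjusted p under 0.05, as for 0% of all genes, and 2 at an unadjusted p under 0.05 in limma, 3.51% against 5.01% of all genes. These were Kcnn4 and Kcnj14, followed by Kcnt1. Kcnn4 averaged 7.03 ± 0.407 FPKM in responder females, 6.53 ± 1.02 FPKM in nonresponder females, 5.62 ± 1.73 FPKM in responder males and 10.1 ± 3.76 FPKM in nonresponder males (SD, n = 3 each). The males of both groups were farther apart than the females, with responder 1 at 3.64 FPKM and nonresponder 4 at 14.4 FPKM at the ends, and the interaction was 0.83 (95% interval 0.04 to 1.62; limma adjusted p = 0.836), and 0.33 without these 2 mice. Kcnj14 averaged 1.80 ± 0.458 FPKM in responder females, 0.866 ± 0.0624 FPKM in nonresponder females, 1.16 ± 0.508 FPKM in responder males and 1.56 ± 0.753 FPKM in nonresponder males. All 3 responder females lay above all 3 nonresponder females, and the males overlapped; the interaction was 0.80 (95% interval 0.02 to 1.58; limma adjusted p = 0.836). A stretch of 1242 bases of Kcnj14 is 99.1% identical to the processed copy Gm5522, so reads could be split between them. Kcnt1 averaged 12.3 ± 1.84 FPKM in responder females, 10.2 ± 1.48 FPKM in nonresponder females, 8.96 ± 1.34 FPKM in responder males and 12.4 ± 3.57 FPKM in nonresponder males.

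**Figure D5:**
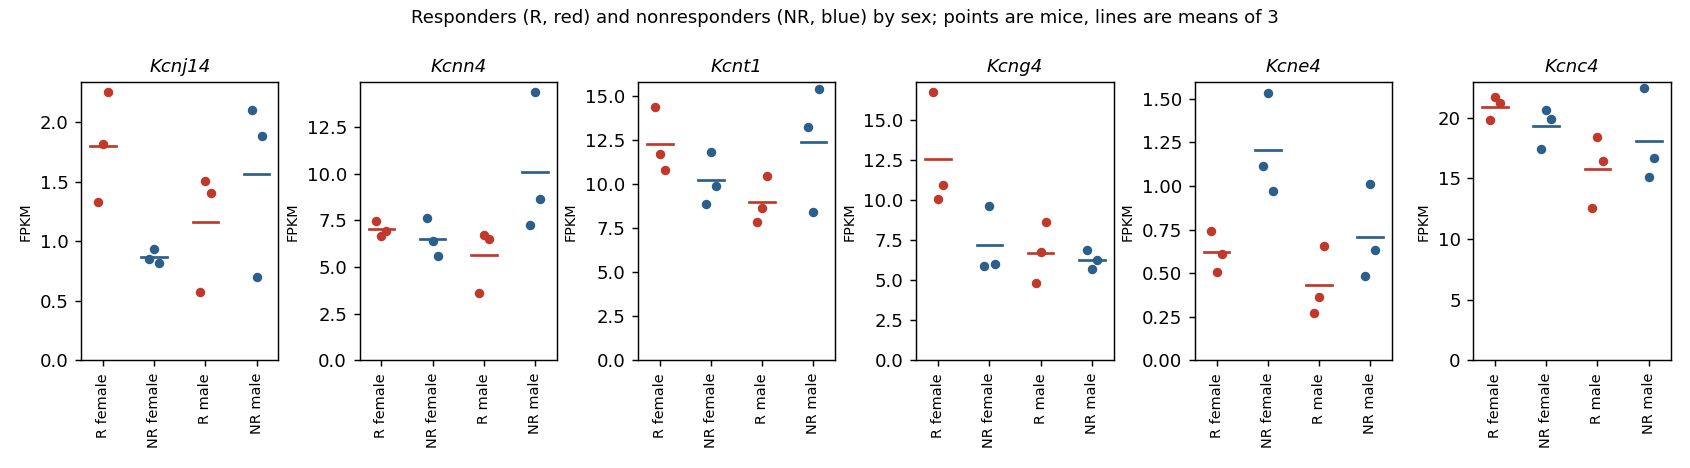
FPKM of Kcnj14, Kcnn4, Kcnt1, Kcng4, Kcne4 and Kcnc4 in responder (R, red) and nonresponder (NR, blue) females and males, with 1 point per mouse and a line at the mean of 3. The 3 responder females lie above the 3 nonresponder females in Kcnj14 and Kcng4 and below them in Kcne4; 19.9% of all genes tested were without overlap among the females.

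Compared over both response groups, 44 tested members were higher and 13 lower in females than in males, which is 77.2% higher against 48.3% of all genes, with a median log2 difference of 0.10 against -0.01. With each mouse rescaled to the same total the split was 50 higher and 7 lower, where 62.4% of all genes were higher. No member had an adjusted p under 0.05, which 0.0563% of all genes had, and 2 had an unadjusted p under 0.05 in limma, 3.51% against 4.53% of all genes. Without responder 1 and nonresponder 4 it was 23 higher of 54 tested, with a median difference of -0.01, where 49.4% of all genes were higher. Both are males with the lowest medians of the tested Kcn genes, so leaving them out by itself moves the split this way. The part of their low sensory neuron marker sums was not tested. Kcng4 averaged 9.89 ± 3.99 FPKM in females and 6.52 ± 1.29 FPKM in males (SD, n = 6 each), a log2 difference of 0.47 (95% interval 0.05 to 0.90; limma adjusted p = 0.864). Kcne4 averaged 0.913 ± 0.378 FPKM in females and 0.570 ± 0.263 FPKM in males, a log2 difference of 0.28. Kcnc4 averaged 20.1 ± 1.49 FPKM in females and 16.9 ± 3.31 FPKM in males, a log2 difference of 0.25.

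Proteins that bind these channels were read from a list of 25 partner genes, such as the Kv4 partner Dpp6 and the sulfonylurea receptors. Of 23 tested, 13 were higher and 10 lower in responders (median log2 fold change 0.05). At an adjusted p under 0.05 in limma stood 0 of them, against 0.0211% of all genes tested. At an unadjusted p under 0.05 stood 1 of the 23, against 7.4% of all genes tested. This was Lrrc55, which encodes an auxiliary subunit of BK channels. It averaged 0.822 ± 0.286 FPKM in responders and 1.23 ± 0.271 FPKM in nonresponders, at a log2 fold change of -0.30 (limma adjusted p = 0.651). Abcc9, the sulfonylurea receptor that joins Kcnj8 in vessels, averaged 1.06 ± 0.560 FPKM in responders and 1.78 ± 1.12 FPKM in nonresponders, at -0.38 (limma adjusted p = 0.757). Its nonresponder mean rested on nonresponders 3 and 4, at 2.99 and 3.44 FPKM against at most 1.13 FPKM in the other nonresponders, and these mice had the highest pericyte and smooth muscle marker sums, 82.5 and 83.5 FPKM; the part of those cells was not tested. Dlg2, a scaffold of Kcna channels, averaged 19.0 ± 1.02 FPKM in responders and 17.3 ± 2.64 FPKM in nonresponders, at 0.14, and Amigo1, a partner of Kv2 channels, averaged 11.4 ± 1.88 FPKM in responders and 10.1 ± 1.77 FPKM in nonresponders, at 0.17.

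The description labels carry a first number: responders carry 44, 45, 48 or 49, nonresponders 68, 82 or 83. Each number held mice of 1 group, so that what it stands for cannot be told apart from the response. Averaged by this number, 33 tested members were higher and 24 lower in responders, with 2 at an unadjusted p under 0.05 in limma, 3.51% against 7.84% of all genes.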

How the data were processed

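RNA was taken from the trigeminal ganglia of 12 mice and libraries were made with poly A selection, per the labels' protocols. Each library is 1 replicate, and the p-values measure the spread between these samples. The authors deposited 1 table with 1 value per gene and mouse, taken here as FPKM; the header names no unit, which was inferred from the values. STAR 2.6.0a and StringTie 1.3.5 with GRCm38 and mm10 are named per the submitters' processing notes; the sources used here do not give other settings or the use of strand. Of the identifiers 51076 of 51341 matched GENCODE M21. Depth was implied by the steps of single-exon genes, whole reads were not recovered, and no interval that needs read counts was made.

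Genes that reached 1 FPKM in 3 or more mice entered the test. Their log2(FPKM + 1) values were fitted by limma 3.58.1 (R 4.3.3; no trend in eBayes, 9 residual degrees of freedom, sex as covariate), with Benjamini-Hochberg adjustment over all tested genes, 2-sided. The procedure was tested on simulated data. Near-identical transcripts were sought with blastn 2.17.0 (at least 90% identity over at least 200 bases). The design had allowed for counts, and the branch for FPKM was used. Named were the 2 most abundant members and the 2 of smallest p of each subfamily, every member with an unadjusted p under 0.05, the first 3 of the interaction and of the sex contrast, and a set of genes known from sensory neurons; others, and Kcnq1, Kcnmb4os2 and Kcnd3os, are named after their values were seen. A few Kcn genes are left out of the text and figures and are not reported here. Members and lists were chosen with earlier results of these data known. Replicate numbers do not pair the mice, and 24 alternative settings were tried.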

Additional observations from a re-analysis of the deposited data

Results flagged for a closer look

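Of 84 group tests for a mouse far from the other 5 of its group, 13 passed Dixon's 95% critical value for 6 samples. That is 15.5%, against 13.4% of the group tests over all genes tested and about 1 in 20 by chance. Responder 1 accounts for 6 of these, all low, which is 14.3% of the 42 genes, against 5.71% of all genes tested. The 42 Kcn genes were fewer than the 57 tested members, so these shares do not cover all tested members. Its values were 260 FPKM for Kcnab2 against 454 to 578 FPKM in the other responders, and 48.6 FPKM for Kcna2 against 68.8 to 81.7 FPKM. It also had 2.80 FPKM for Kcnc2 against 4.40 to 5.16 FPKM, 6.48 FPKM for Kcnq3 against 9.39 to 10.5 FPKM, 6.91 FPKM for Kcnn1 against 13.2 to 16.6 FPKM, and 3.64 FPKM for Kcnn4 against 6.51 to 7.46 FPKM. All 6 genes had lower values in the mouse with the lowest sum of sensory neuron markers, 3452 FPKM; the part of that difference was not tested.

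Responder 3 was high for Kcnc1, at 25.6 FPKM against 7.88 to 12 FPKM in the other responders, and low for Kcnu1, at 2.71 FPKM against 3.47 to 3.73 FPKM. Responder 6 was high for Kcnip1, at 7.98 FPKM against 3.78 to 4.59 FPKM. Among nonresponders, replicate 1 was low for Kcns3, at 8.81 FPKM against 25.3 to 43.0 FPKM, and replicate 3 was high for Kcng4, at 9.65 FPKM against 5.70 to 6.90 FPKM. Nonresponder 4 was low for Kcnb2, at 4.73 FPKM against 6.37 to 7.31 FPKM, and nonresponder 5 was low for Kcnd3, at 2.42 FPKM against 6.59 to 9.65 FPKM.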

How the results depend on the processing

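The number of genes called over the whole table between responders and nonresponders, 3, was 1 with the replicate number as a replicate block, 1 with mice averaged that share the leading number in their description, and between 2 and 6 when 1 mouse was left out. No Kcn gene had an adjusted p under 0.05 in any of the 24 alternative settings, and the smallest was 0.227, for Kcnh7 with array weights. The number of Kcn genes at an unadjusted p under 0.05, 2, was 5 with array weights, 8.77% against 11.2% of all genes, and 3 with the replicate block, 5.26% against 7.25%. It was between 0 (without nonresponder 4) and 6 (without responder 1) when 1 mouse was left out. The median log2 fold change of the tested Kcn genes lay between -0.02 without nonresponder 4 and 0.07 without responder 1. Over the 58 results on single genes, 55 values in 18 results changed sign, none of them called. Replicate numbers were checked for pairing: the correlations of same-numbered mice lay between -0.27 and 0.13, no mouse correlated best with its own number, and same-numbered mice differ in sex in 4 of 6 pairs, so the numbers were not taken to pair the mice; with them as a block, 31 Kcn genes were higher and 26 lower in responders. Precision is limited by 6 mice a group and by values near 1 FPKM, where the pseudocount compresses fold changes.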

Other observations

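Of the noncoding genes at Kcn loci, Kcnmb4os2 was tested and is given above, and those given here were low. Kcnq1ot1, the imprinted antisense RNA of the Kcnq1 locus, was between 0.0668 and 0.289 FPKM in all mice, with 0.117 ± 0.0855 FPKM in responders and 0.109 ± 0.040 FPKM in nonresponders (SD, n = 6 each). Kcnd3os averaged 0.201 ± 0.117 FPKM in responders and 0.273 ± 0.0592 FPKM in nonresponders, and shares 165 exonic bases with Kcnd3 on the opposite strand. Poly A selection and unknown strand use limit what these values count, and Kcnq1ot1 and Kcnd3os were not tested.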
